A study of Drosophila melanogaster with 6 samples.

Results

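CG16826, lcs and CG1678 are 3 of the 17609 genes counted in 6 RNA libraries of adult Drosophila melanogaster. They were chosen from the measured counts, as the most abundant thorax genes whose reads were far higher in the gut and far lower in the carcass library of foxo RNAi flies than in the matching control library. Their thorax levels and their gut and carcass ratios are therefore given as a description, and nothing is tested with them. The libraries came from thorax (labelled skeletal muscle), gut, and carcass without intestine and eggs (labelled fat body). In the foxo RNAi flies (ACT88F>Foxo RNAi), the Act88F-Gal4 driver expressed a hairpin against foxo. In the controls (ACT88F>W1118) the same driver was crossed to w1118, so every library carries the driver. The labels give an age of 10 days for all flies, which were kept on a sugar and yeast diet for 10 days. There is 1 library per genotype and tissue, so no difference below has a replicate check, and every interval covers counting error only. The labels give neither the sex nor the number of flies behind a library.

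Act88F codes for the actin of the indirect flight muscles, which fill most of the fly thorax, and foxo codes for a transcription factor that insulin signalling holds inactive. A whole thorax also holds front parts of the digestive tract, salivary glands, the ventral nerve cord, fat body, tracheae and epidermis, so an RNA abundant in a thorax library need not come from muscle. The labels do not state whether foregut, crop and salivary glands went with the thorax, gut or carcass sample. In such bulk samples a smaller number of cells of one type and less RNA per cell cannot be told apart. No function is given for the products of CG16826, lcs and CG1678 in the annotation used, and they are described here by their gene models and their levels.

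All 3 are short protein-coding genes with 1 exon in every annotated transcript, in Release 6 coordinates of the fly genome. CG16826 (FBgn0032505) lies on chromosome 2L, from 13347773 to 13349020 on the plus strand, with a predicted protein of 341 residues. The gene lcs (FBgn0028583) lies on chromosome X, from 21396727 to 21397316 on the minus strand, and its predicted protein has 145 residues. CG1678 (FBgn0031176, listed as whe in the newer annotations) lies on the same strand of X, from 21402339 to 21402772, and its predicted protein has 85 residues. Only 5022 bases separate lcs and CG1678, and the 1 gene listed between them, CR45500, had 0 reads in every library. None of the 3 overlaps another listed gene, so their reads do not depend on how overlapping or antisense genes were counted. By comparison, 7.55% of 8343 coding genes with at least 300 reads have 1 exon, and their median protein length is 486 residues.

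The neighbouring genes did not have comparable levels. The gene mst, 5193 bases from lcs, had 148 reads in control thorax and 328 in foxo RNAi thorax. DIP-beta, which codes for an immunoglobulin-domain protein of the neuronal surface and lies 19342 bases from CG1678, had 120 and 232. CG9395 begins 802 bases from CG16826 and had 205 and 364, and on the other side CG43778 had 332 and 690. Thus the high thorax counts were found in CG16826, lcs and CG1678 and not in the genes with reads next to them, other than lcs and CG1678 themselves.

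CG16826 had the most reads of any gene in both thorax libraries. Control thorax gave 412004 reads and foxo RNAi thorax 733435, or 21989 and 19287 counts per 1000000 reads (CPM, scaled over the 6 libraries). In gut it had 268 and 9168 reads, or 25.7 CPM (95% interval 22.7 to 28.9) and 781 CPM (765 to 797). In carcass it had 4238 and 114 reads, or 235 CPM (228 to 242) and 6.77 CPM (5.59 to 8.14). The control gut and the foxo RNAi carcass libraries were thus the low ones, and the other library of each of those tissues lay far above.

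The same order of libraries was found for lcs, which had the next most reads of the 3. It had 139071 and 262597 reads in control and foxo RNAi thorax, or 7422 and 6905 CPM. In gut it had 241 and 3928 reads, or 23.1 CPM (20.3 to 26.2) and 334 CPM (324 to 345), and in carcass 1642 and 44 reads, or 91.0 CPM (86.6 to 95.5) and 2.61 CPM (1.90 to 3.51). Its level in the control gut library overlapped that of CG16826, although in thorax CG16826 had almost 3 times as many reads.

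CG1678 had 135811 and 169402 reads in thorax, or 7248 and 4455 CPM. In gut it had 71 and 3120 reads, or 6.80 CPM (5.31 to 8.58) and 266 CPM (256 to 275), and in carcass 1877 and 42 reads, or 104 CPM (99.4 to 109) and 2.50 CPM (1.80 to 3.37). For each of the 3 genes the order from high to low was control thorax, foxo RNAi thorax, foxo RNAi gut, control carcass, control gut and foxo RNAi carcass, and no neighbouring intervals in that order overlapped.

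**Figure D1:**
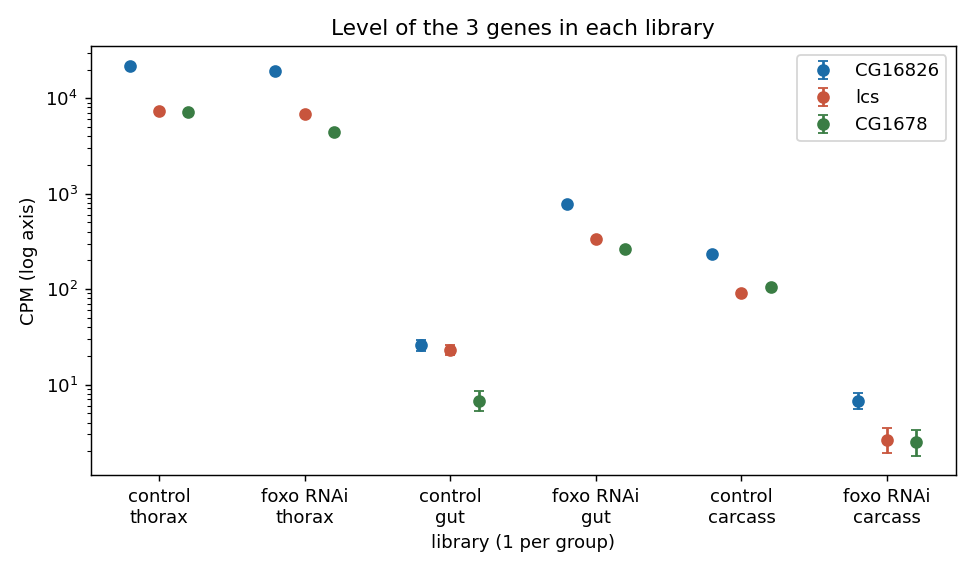
CPM of CG16826, lcs and CG1678 on a log axis in each of the 6 libraries, with exact 95% Poisson intervals that cover counting error only. Gut and carcass are mirrored: the foxo RNAi library is the higher one in gut (781, 334 and 266 CPM) and the lower one in carcass (6.77, 2.61 and 2.50 CPM).

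Together the 3 genes made up 3.82% of all reads in control thorax and 3.39% in foxo RNAi thorax. Their share was 0.00399% in control gut and 0.114% in foxo RNAi gut. Carcass had 0.0497% in control and 0.00151% in foxo RNAi flies. Per length, as CPM per kilobase of exon, CG16826 (17620), CG1678 (16701) and lcs (12580) held places 1, 2 and 4 in the control thorax library among genes with at least 200 bases of exon, with CG45080 (13132) in place 3. In the foxo RNAi thorax library CG16826 (15454), CG45080 (13398), lcs (11704) and CG1678 (10264) held places 1 to 4. The gene in place 5 was a yolk protein gene in both, Yp2 at 8554 in control and Yp3 at 5885 in foxo RNAi flies. By length, then, these genes stood above the flight muscle actin Act88F, which had 4545 in control thorax.

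The genotype ratio in thorax was the 1 ratio that the choice of the genes did not use. Here a ratio is the foxo RNAi over the control library, scaled with factors from that tissue's own libraries. A gene was called higher or lower where the pair of libraries held 30 reads or more, the difference reached 2-fold and the near bound of its 95% interval reached 1.5-fold. In thorax, 0 of the 3 genes were called, where 3.56% of 8887 genes were called higher and 2.72% lower. The ratio was 0.877 (0.874 to 0.880) for CG16826 and 0.930 (0.924 to 0.936) for lcs. CG1678 had a lower ratio, 0.615 (0.610 to 0.619), or 1.63-fold lower in the foxo RNAi library, so in thorax the neighbours lcs and CG1678 differed from each other. For reference, the median log2 ratio was 0.00 over all genes and -0.18 over the 100 genes with the most control thorax reads. Of those 100 genes, 0 were called higher and 13 lower in thorax.

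In gut, by the choice of the genes, all 3 were called higher, as were 2.22% of 7866 genes, and 3.18% were called lower. CG16826 was 29.6-fold higher in the foxo RNAi gut library (26.3 to 33.6) and CG1678 37.9-fold higher (30.1 to 49.0). The gene lcs was 14.1-fold higher (12.4 to 16.2), an interval below those of the other 2 genes. Over all genes, 175 were higher and 250 lower in gut, or 333 and 172 where libraries were scaled by total count.

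In carcass all 3 were called lower, again by choice, as were 10.2% of 8589 genes, and 3.41% were called higher. CG16826 was 35.3-fold lower in the foxo RNAi carcass library (29.4 to 43.1), lcs 35.2-fold lower (26.4 to 49.2) and CG1678 42.1-fold lower (31.4 to 59.3). Unlike in gut, the 3 intervals overlapped. Over all genes, 293 were higher and 877 lower in carcass, or 478 and 666 by total count. Called higher in gut and lower in carcass at once were 31 genes, 0.41% of 7560 measured in both, and the reverse was found for Hsp27, a small heat shock protein gene, and PH4alphaPV, 0.0265% of those genes.

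**Figure D2:**
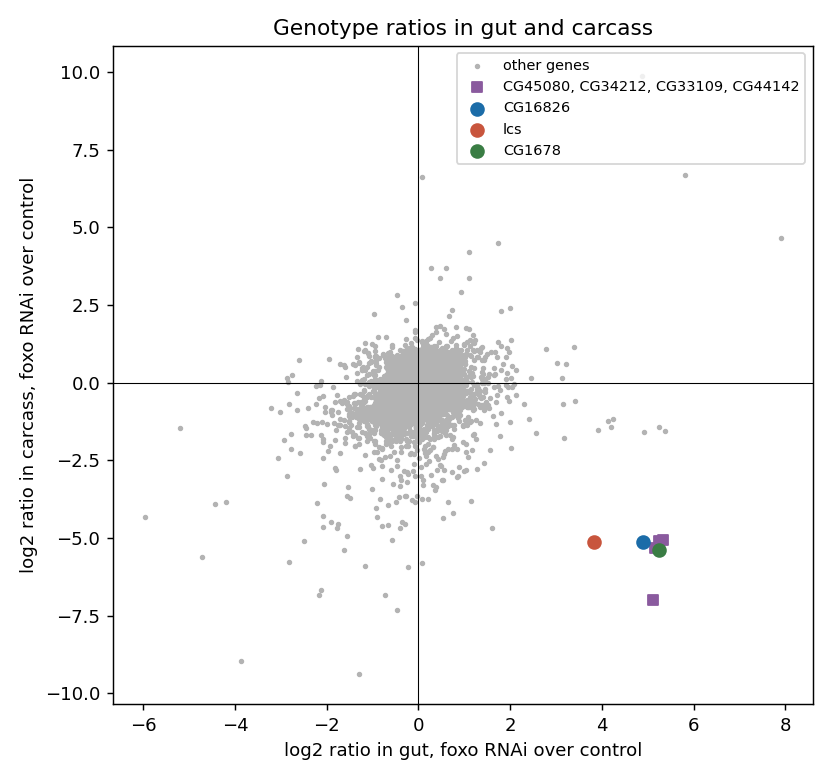
Log2 ratio of the foxo RNAi over the control library in gut (horizontal) and carcass (vertical), 1 point per gene with at least 30 reads in each tissue. CG16826, lcs and CG1678 lie at 3.82 to 5.24 in gut and -5.40 to -5.14 in carcass, beside CG45080, CG34212, CG33109 and CG44142; the carcass ratio of CG44142 rests on 0 foxo RNAi reads and on the 0.5 added to each count.

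Of the 31 genes, CG1678, in place 9 by control thorax reads, is the last inside the choice, and CG45080, in place 22 with 68896 reads, is the first outside it. Next came Shaw, a potassium channel gene, in place 81 with 25630 reads. After it came CG33109 in place 166, CG34212 in place 181 and sif, which codes for a guanine nucleotide exchange factor, in place 747. Shaw had a log2 ratio of 1.14 in gut and -1.23 in carcass, and was called lower in thorax (-1.87). The gene sif had 2.03 and -2.11. With a ratio of at least 4-fold required in both tissues, 8 of the 31 remained: CG16826, lcs, CG1678, CG45080, CG33109, CG34212, CG44142 and sif.

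Genes with the most similar profile were found by the root mean square distance, over the 6 libraries, between each gene's log2(CPM + 1) values, centred on the gene's mean, and the mean of the 3 genes. CG45080 was nearest at 0.28, followed by CG34212 at 0.62, CG33109 at 0.64 and CG44142 at 1.35. After CG13947 (1.67) and CG32198 (1.71) came Shaw (1.73), Act88F (1.74), Scp1, a calcium-binding protein gene (1.79), and CG15628 (1.86). Among themselves, CG16826 and CG1678 were 0.34 apart, CG16826 and lcs 0.47, and lcs and CG1678 0.60, so CG45080 was nearer to CG1678 (0.26) and to CG16826 (0.30) than either was to the other or to lcs. Pearson's r with the mean profile was at least 0.987 for the first 4 genes, as a description over 6 libraries of which each tissue gives 2. Since the levels themselves chose the first 3 genes, likeness to them says nothing of shared function or control.

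**Figure D3:**
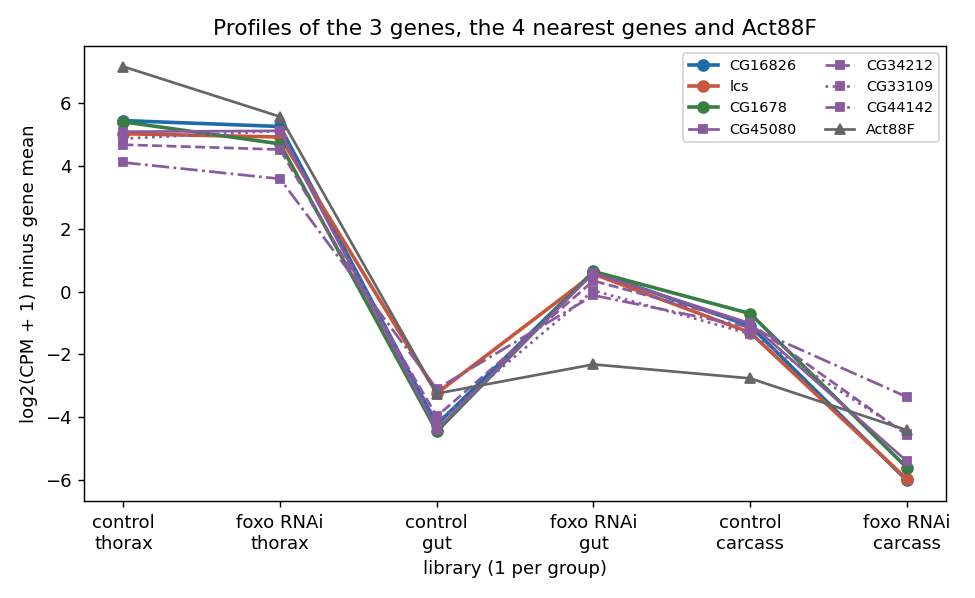
Centred log2(CPM + 1) of CG16826, lcs, CG1678, the 4 genes with the smallest distance to them (0.28 to 1.35) and Act88F (1.74) in the 6 libraries. Lines join the values of a gene and stand for no order in time; the 7 short genes change places with control and foxo RNAi in gut and carcass, and Act88F moves less.

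CG45080 (chromosome 3R, 13318991 to 13319270, minus strand, 55 residues) had 68896 and 142661 reads in control and foxo RNAi thorax, 43 and 1898 in gut, and 946 and 26 in carcass. It was 37.9-fold higher in gut (28.3 to 53.1) and 34.1-fold lower in carcass (23.5 to 53.4), with a thorax ratio of 1.02 (1.01 to 1.03). These ratios lie within the intervals of CG1678 in gut and carcass, and the thorax ratio lies above that of each of the 3 genes. CG44142 (3R, 13312855 to 13313188, 83 residues) is its neighbour on the same strand, 5802 bases away with no listed gene between them. CG44142 had 3298 and 4654 reads in thorax, 2 and 99 in gut, and 66 and 0 in carcass, at least 21.0-fold lower there against a floor of 3 counts in the foxo RNAi library. Like lcs and CG1678, then, CG44142 and CG45080 are short 1-exon genes of one strand that lie next to each other.

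CG34212 (chromosome 2R, 6049874 to 6050286, 48 residues) had 15447 and 28174 reads in thorax, 11 and 469 in gut, and 269 and 6 in carcass. CG33109 (3R, 14220560 to 14221584, 296 residues) had 16412 and 39557 reads in thorax, 7 and 348 in gut, and 194 and 5 in carcass. Both had gut ratios near those of CG16826 and CG1678, at 35.4-fold (20.5 to 74.6) and 40.3-fold higher (20.7 to 108), and carcass ratios of 39.5-fold (19.4 to 118) and 33.7-fold lower (15.6 to 115). CG13947 and CG32198 matched in part. CG13947 was higher in thorax (3.19-fold, 3.03 to 3.37) as well as in gut, where it had 3 and 325 reads, and had 14 and 3 reads in carcass. CG32198 had 65 and 0 reads in carcass and 0 and 11 in gut, too few to be called there.

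Levels in gut and carcass were also set against the thorax level of the same genotype. In control gut, CG16826 was at 0.117% (0.103 to 0.132) and CG1678 at 0.0939% (0.0733 to 0.118) of the thorax level, and lcs was higher at 0.311% (0.273 to 0.353), an interval apart from those of the other 2. In foxo RNAi gut they were at 4.05, 5.96 and 4.84%, in the same order. In control carcass the 3 genes were at 1.07, 1.44 and 1.23%, in the order CG16826, CG1678 and lcs, and in foxo RNAi carcass at 0.0351, 0.0560 and 0.0379%.

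Among muscle genes the percentages varied, and some lay near those of the 3 genes. Act88F, which had 135832 and 91273 reads in thorax, 45 and 107 in gut and 116 and 23 in carcass, was at 0.0595% of its thorax level in control gut (0.0434 to 0.0796) and 0.380% in foxo RNAi gut. The first of these intervals overlaps that of CG1678. In carcass Act88F was at 0.0887% and 0.0569% (0.0733 to 0.106 and 0.0361 to 0.0854), and the latter value is close to that of CG1678. Because the thorax level of Act88F differed as well, these percentages do not show its genotype ratios: Act88F was called lower in carcass, 4.73-fold (3.06 to 7.89), and in thorax, 3.02-fold, and its gut ratio of 2.05 (1.44 to 2.99) was not called.

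The troponin C gene TpnC41C was at 0.126% (0.00318 to 0.702) and 0.581% (0.234 to 1.20) in control and foxo RNAi gut, and at 1.67% and 1.27% in carcass. The actin gene Act79B was at 0.949 and 1.90% in gut and at 1.65 and 1.25% in carcass. Control values of TpnC41C thus lay near those of the 3 genes in both tissues, and those of Act79B in carcass, but neither gene was called in carcass. The flightin gene fln had too few reads to compare, at 0.704% (0.0849 to 2.57) in control carcass and with 0 reads in control gut and foxo RNAi carcass. Mhc, the muscle myosin heavy chain gene, was at 5.54 and 5.79% in gut and at 20.9 and 11.8% in carcass. The troponin T gene up was at 7.84 and 8.15% in gut and at 16.4 and 13.8% in carcass.

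**Figure D4:**
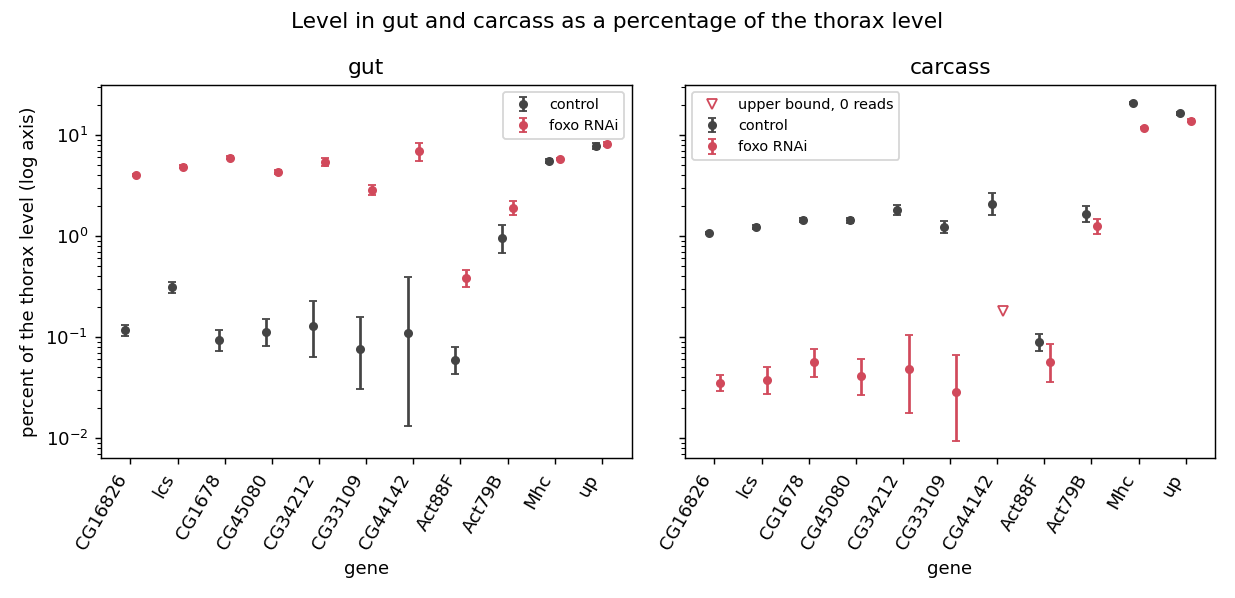
Level in gut (left) and carcass (right) as a percentage of the thorax level of the same genotype, on a log axis, with exact 95% intervals for counting error. CG16826, lcs, CG1678 and the 4 nearest genes move by over 10-fold between genotypes in both tissues, in gut upward and in carcass downward, and Mhc and up stay above 5% in all 4 libraries; the open triangle is the upper bound for CG44142 with 0 reads.

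Among other thorax-enriched genes, CG45080, CG34212, CG33109 and CG44142 had the same directions at like sizes. The rest had smaller ratios, and not all of them shared both directions. Some had a negative log2 ratio in gut or a positive log2 ratio in carcass, and none of those ratios was called. A list of genes with at least 100 CPM in thorax and at least 20 times the level of gut and of carcass, as means of both genotypes, was made after values had been seen. Besides CG16826, lcs and CG1678, it held 52 genes measured in gut and carcass, of which 11 were higher and 0 lower in gut, and 12 lower and 0 higher in carcass. Because means were used, a gene could pass through a single library. Hsp70Bb, among the 52, had 1137 CPM in foxo RNAi thorax, but 1.28 CPM in control thorax and 21.3 CPM in control gut. It was called in neither gut nor carcass. Over all genes, 2.22% were higher and 3.18% lower in gut, and 10.2% were lower and 3.41% higher in carcass. The median log2 ratio of the 52 genes was 0.59 in gut and -0.54 in carcass, beside medians of -0.01 and 0.06 over all genes. In both called directions were 5 of them, CG45080, CG34212, CG33109, CG44142 and Shaw. After the 7 short genes, all at 3.82 or above, the next highest gut value on the list was 2.12, for CG15412, and the next lowest carcass value was -2.24, for Act88F.

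Within a library, reads of the 3 genes did not keep 1 ratio. CG16826 had 2.96 reads per lcs read in control thorax (2.94 to 2.98) and 2.79 in foxo RNAi thorax (2.78 to 2.81). The ratio was 1.11 in control gut (0.931 to 1.33) and 2.33 in foxo RNAi gut (2.25 to 2.42), and in carcass it was 2.58 (2.44 to 2.73) and 2.59 (1.81 to 3.76). The interval of control gut lay below those of all other libraries. That of foxo RNAi gut lay below those of control carcass and of the thorax libraries.

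CG1678 varied more against lcs. It had 0.977 reads per lcs read in control thorax (0.969 to 0.984), 0.645 in foxo RNAi thorax (0.641 to 0.649), 0.295 in control gut (0.223 to 0.385) and 0.794 in foxo RNAi gut (0.758 to 0.833). In control carcass the ratio was 1.14 (1.07 to 1.22), and in foxo RNAi carcass 0.955 (0.610 to 1.49). The lowest value was again in control gut, from 71 and 241 reads.

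**Figure D5:**
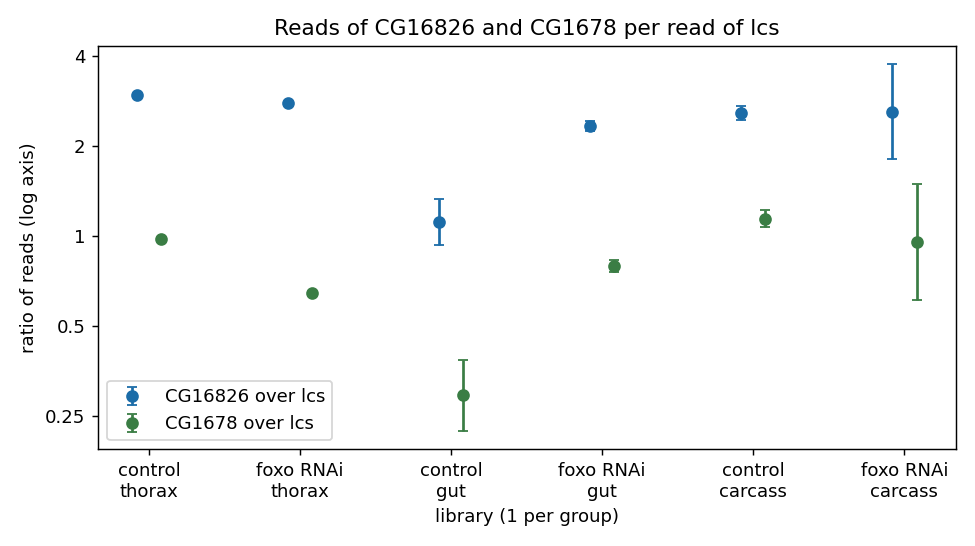
Reads of CG16826 and of CG1678 per read of lcs in each library, on a log axis, with exact 95% intervals for counting error. Control gut is lowest for both, at 1.11 and 0.295.

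Facts of all libraries bear on these values. Depth was between 13274574 and 34385727 counted reads, the deepest being foxo RNAi thorax, and lay above the number of reads per library that the series design text states, a difference whose source was not tested. The targeted gene foxo had 3425 and 4984 reads in thorax, 1143 and 1031 in gut, and 1637 and 1192 in carcass, with log2 ratios of -0.48, -0.35 and -0.39, none of them called. Tissue markers matched the labels in rank: 24 sarcomere genes summed to between 45402 and 61927 CPM in thorax and at most 3928 elsewhere, with TpnC4, Mf and Mlp84B at 0 in every library. Of 36 digestive enzyme genes, 35 were listed, and they summed to 124890 and 211299 CPM in gut and to at most 999 elsewhere. Fat body genes were highest in carcass, at 63802 and 47167 CPM, but also summed to 33103 and 30900 CPM in thorax, and to 3403 and 2745 CPM in gut.

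Marker lists of other tissues also held genes called in gut or carcass, and their part in the results was not tested. Called female tract genes went in the directions of the 3 genes in both tissues. Other lists did so in gut or carcass alone, in neither, or in few genes. In gut, 2 of 19 sarcomere genes (bt and Act79B), 3 of 3 female tract genes and 2 of 8 eggshell genes (Cp19 and dec-1) were higher. Over all genes, 2.22% were higher and 3.18% lower in gut. Lower in gut were 14 of 29 digestive enzyme genes and 2 of 10 fat body genes (Lsp1beta and Lsd-1), and 0 of 2 photoreceptor and 0 of 5 neuronal genes were called. Sarcomere genes summed to 1926 CPM for control and 2839 CPM for foxo RNAi gut, eggshell genes to 29.8 and 41.4 CPM and fat body genes to 3403 and 2745 CPM. Send1, CG32834 and CG17239, serine protease genes of the female tract, had 2, 7 and 1 control and 54, 129 and 71 foxo RNAi gut reads, and they were called lower in carcass. Female tract genes summed to 1.2 and 21.9 CPM in gut and to 563 and 195 CPM in carcass.

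In carcass, 12 of 13 photoreceptor genes, 18 of 22 digestive enzyme genes, 6 of 7 neuronal genes and 5 of 5 female tract genes were lower. Also lower were 4 of 10 fat body genes and 2 of 20 sarcomere genes (Act88F and sls). Of 13 eggshell genes, 10 were higher and 1 lower. Over all genes, 10.2% were lower and 3.41% higher in carcass, so the sarcomere count lay near the share of all genes. The rhodopsin gene ninaE had 11546 and 22 reads there, and photoreceptor genes summed to 1206 CPM for control and 77.6 CPM for foxo RNAi carcass, with Arr2 at 0 in every library. Digestive enzyme genes summed to 842 CPM in control carcass and 95 CPM in foxo RNAi carcass, and neuronal genes to 285 and 149 CPM. Eggshell genes summed to 3872 and 9569 CPM, with Cp36, Cp38, Vm32E and 3 others at 0 in every library.

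Lists of salivary gland, peritrophic matrix and mucin, and gut regional genes gave 0 calls in gut. Each of these lists summed to more CPM in gut than in thorax. A sum can rest on a single gene, and fkh is on both the salivary gland and the gut regional list. Whether such tissues added reads to the thorax libraries was not tested. Peritrophic matrix and mucin genes had 12135 and 12943 CPM in gut, against 37.1 and 1096 in thorax. Gut regional regulators had 775 and 797, against 185 and 196. Over all genes, 2.22% were higher and 3.18% lower in gut, and 3.41% and 10.2% in carcass. Of 13 salivary gland genes listed, 4 were measured in gut and 0 were called. They summed to 3991 and 2448 CPM there, nearly all from Ag5r2, which had 39689 and 26271 reads, and to 84.3 and 91.2 CPM in thorax; Sgs4 and Sgs7 were at 0. In carcass 2 of 5 (fkh and Ag5r2) were lower and pip was higher. Peritrophic matrix and mucin genes had 0 of 7 called in gut and 3 of 7 lower in carcass, with sums of 1087 and 440 CPM in carcass, and gut regional regulators had 0 of 12 called in gut and 2 of 10 (fkh and pros) lower in carcass. Of the other lists, oenocyte genes had 3 of 5 lower in gut and 1 of 5 in carcass, Malpighian tubule genes 3 of 9 lower in gut and 0 of 9 called in carcass, and haemocyte genes 0 of 5 and 0 of 7 called. Cuticle and tracheal genes had 0 of 4 called in gut and 3 of 11 higher in carcass. Of the male accessory gland and testis genes, Tektin-C was the 1 gene measured in gut and carcass, and it was lower in both.

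In thorax, where the ratios were 0.877 for CG16826, 0.930 for lcs and 0.615 for CG1678, other lists moved as well, and their part was again not tested. Over all genes, 3.56% were higher and 2.72% lower in thorax. Of 24 digestive enzyme genes 15 were higher, with sums of 129 CPM for control and 999 CPM for foxo RNAi thorax. Of 8 peritrophic matrix and mucin genes 4 were higher and 1 lower (37.1 and 1096 CPM), of 10 photoreceptor genes 5 were higher and 2 lower (101 and 126 CPM), and of 11 gut regional regulators 2 were higher. Oenocyte genes had 4 of 5 lower (966 and 353 CPM). Sarcomere genes had 1 of 21 higher (TpnC47D) and 2 lower (Act88F and Zasp52), fat body genes 2 of 11 higher and 2 lower, and cuticle and tracheal genes 3 of 10 higher and 2 lower. Of 2 eggshell genes yl was lower, and of 2 male accessory gland and testis genes Mst57Db was higher and Tektin-C lower. Of the salivary gland, neuronal, haemocyte and Malpighian tubule genes measured in thorax, 0 of 7, 0 of 7, 0 of 7 and 0 of 5 were called, and no female tract gene was measured there.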

How the data were processed

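Total RNA of 3 tissues and 2 genotypes was sequenced, 1 library each. The kit kept strand and took total RNA, per the labels' protocols. Single-end reads of 50 bases were aligned to fly genome Release 6, per the series design text. Which aligner, counter and strand setting the submitters used, and how they treated reads with several matches, was not given in the sources used here. Each deposited table lists raw counts per gene, as whole numbers, and RPKM values that the authors scaled by gene span. Counts were the main measure, and RPKM served as an alternative only.

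Levels are CPM scaled with TMM factors over 6 libraries, and genotype ratios use TMM factors of the 2 libraries of a tissue (edgeR 4.0.16, R 4.3.3), with 0.5 added to each count. Intervals are exact 95% Poisson for levels and Clopper-Pearson for ratios (scipy 1.17.1). PCR copies are not separate molecules, so both cover counting error only. With 1 library per group no test was run. The calling rule was tested on simulated data. Gene models came from Ensembl release 115, which matched 17367 of 17609 genes by position and 110 by symbol.

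The genes and the marker lists were chosen with earlier results of these data known. The genes named were CG16826, lcs, CG1678, foxo and Act88F, the 10 nearest profiles (at least 300 reads) and the 3 nearest to each gene, the 5 next most abundant genes in each opposite class, neighbours on the chromosome and in rank, and up to 3 called genes per marker list. CG15412, Mhc, up, fln, TpnC41C and Hsp70Bb were named after their values were seen. Protein matches and promoter motifs were not analysed here.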

Additional observations from a re-analysis of the deposited data

Results flagged for a closer look

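CG16826, lcs and CG1678 are listed here because their calls were opposite in gut and carcass, and these opposite directions are what chose them. The log2 ratio in gut minus that in carcass was 10.03 for CG16826, 8.96 for lcs and 10.64 for CG1678. It was 10.33 for CG45080, 10.45 for CG34212, 10.41 for CG33109 and 12.10 for CG44142, of which the last rests on 0 reads in the foxo RNAi carcass library. With 1 library per group, none of the differences between tissues given here was tested.

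Other named genes with opposite calls had smaller differences between gut and carcass, at 2.37 for Shaw, 4.14 for sif, -2.22 for Hsp27 and -2.22 for PH4alphaPV. The female tract genes CG32834, CG17239 and Send1 had 5.43, 6.93 and 5.41. In thorax minus gut, Shaw had -3.01.

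Between thorax and carcass, opposite calls were found for marker genes of other tissues. The log2 ratio in thorax minus that in carcass was 5.39 for Jon65Aiv, 6.73 for Jon65Aiii and 5.43 for alphaTry, genes of digestive proteases. It was 15.78 for Muc68D and 8.21 for Muc68E, 13.46 for ninaE and 13.16 for the arrestin gene Arr1, and -4.75 for the yolk protein receptor gene yl. CG16826, lcs and CG1678 were not called in thorax.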

How the results depend on the processing

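No paired analysis was possible because the labels give each group 1 sample and no shared replicate numbers. Every direction held for the 9 genotype ratios of CG16826, lcs and CG1678 under the 6 alternatives, and each gene was called higher in gut, lower in carcass and not called in thorax under each alternative of scaling, read minimum or fold run for the calls. With total counts the log2 ratio in thorax was -0.10 for CG16826, -0.018 for lcs and -0.62 for CG1678, and in gut 5.12 for CG16826 and 4.05 for lcs. Without the 50 most abundant genes the thorax values were -0.15, -0.061 and -0.66, and on the RPKM scale -0.10, -0.017 and -0.62, with -4.79 for CG16826 in carcass. DESeq2 size factors gave -0.18 for CG16826 in thorax. Total-count scaling moved the CPM of CG16826 to 22905 and 21330 in thorax, 18.4 and 644 in gut, and 271 and 8.59 in carcass. It moved lcs to 7731 and 7637 in thorax, 16.6 and 276 in gut and 105 in control carcass, and CG1678 to 7550 and 4927 in thorax, 4.89 and 219 in gut and 120 in control carcass. Per kilobase of exon, CG16826 over lcs was 1.40 and 1.32 in thorax, 0.526 and 1.10 in gut, and 1.22 and 1.22 in carcass, and CG1678 over lcs was 1.33 and 0.877 in thorax, 0.401 and 1.08 in gut, and 1.55 in control carcass. By construction this divides each ratio by a constant. Genes higher in gut numbered 333 in place of 175, and higher in carcass 478 in place of 293, with total counts, which move the log2 ratios of all genes up by 0.09 in thorax, 0.24 in gut and 0.17 in carcass. Genes lower in gut and higher in carcass numbered 0 with total counts and 1 with DESeq2 size factors in place of 2. Genes higher in gut and lower in carcass numbered 15 with at least 100 reads in place of 31. With at least 4-fold, higher and lower genes numbered 178 and 60 in thorax, 48 and 65 in gut, and 110 and 301 in carcass, and 8 and 0 in the opposite classes. With Pearson's r in place of the distance, 4 of the 10 nearest genes were shared, CG45080, CG34212, CG33109 and CG44142. Depth limits the least read of the genes with similar profiles: in foxo RNAi carcass CG44142 and CG32198 had 0 reads, CG13947 had 3, CG33109 had 5 and CG34212 had 6.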
